A study of Drosophila melanogaster with 2 samples.

Results

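Distal intronic summits of Spps-GFP were the binding summits that lay in introns far from any promoter. They were taken from the reproducible peak list (IDR, irreproducible discovery rate) as every peak whose summit was over 2000 bp from any protein-coding transcription start site (TSS), inside the span of a protein-coding gene and outside every annotated exon. Of 3260 reproducible peaks, 733 met this rule (22.5%, exact 95% interval 21.1 to 24.0). The others comprised 1388 summits within 500 bp of a protein-coding TSS, 627 summits between 500 and 2000 bp, 481 distal summits outside protein-coding genes and 31 distal summits in exons. The positions that met the rule, called eligible sequence here, came to 41.9 Mb of introns.

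Spps was measured by ChIP-seq in a transgenic Drosophila melanogaster line that stably expresses Spps with GFP at its C-terminal end, with an anti-GFP antibody. Whole embryos aged 0 to 12 h gave 2 biological replicates of 1 group, so no condition was compared with another, and both replicates were set against the same control. Chromatin was fragmented by sonication, and the labels give sizes of 200 to 800 bp. Sequencing depth is unknown because the lists give no counts of reads, and intervals cover counting over summits, genes or windows only. A whole embryo holds all cell types, and a peak does not tell which of them bound the protein.

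Spps, a member of the Sp/KLF family of zinc finger transcription factors, acts at Polycomb response elements, the DNA elements that recruit Polycomb group repressors. Sp/KLF proteins are known for binding GC-rich and GT-rich sequences. Long introns of Drosophila developmental genes are well known as places where enhancers and other regulatory elements lie, often in the first introns of a transcript.

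The sequences below are the 121 bases centred on the summits of the 5 strongest members outside one chromosome arm, and they show the base composition at the bound positions. They read along the plus strand of dm6 (RefSeq, release 6), with runs of at least 6 A or T bases in capitals. The summits lay in introns of Gug (chr3L:8458264-8458384), Kdm2 (chr3R:9057555-9057675), Tlk (chrX:3742150-3742270), fz (chr3L:14304013-14304133) and aos (chr3L:16480508-16480628).
Gug: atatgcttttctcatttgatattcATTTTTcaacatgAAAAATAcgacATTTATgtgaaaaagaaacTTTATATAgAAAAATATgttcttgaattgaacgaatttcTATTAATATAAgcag
Kdm2: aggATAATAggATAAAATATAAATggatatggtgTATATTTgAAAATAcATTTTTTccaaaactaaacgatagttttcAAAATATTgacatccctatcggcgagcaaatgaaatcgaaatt
Tlk: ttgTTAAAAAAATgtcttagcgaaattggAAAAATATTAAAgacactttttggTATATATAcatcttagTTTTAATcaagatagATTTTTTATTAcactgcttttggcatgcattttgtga
fz: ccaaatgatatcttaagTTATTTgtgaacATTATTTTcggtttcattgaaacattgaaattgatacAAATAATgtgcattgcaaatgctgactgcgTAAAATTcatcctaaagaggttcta
aos: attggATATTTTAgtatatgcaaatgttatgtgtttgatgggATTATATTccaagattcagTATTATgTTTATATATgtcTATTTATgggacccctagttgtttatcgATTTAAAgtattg
Their GC content was 22.3% for Gug, 27.3% for Kdm2, 24.8% for Tlk, 29.8% for fz and 27.3% for aos, each below the 40.01% of eligible sequence.

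An 8-base sequence, CACTGAGA, was the highest ranked of those holding at least 3 G or C bases near the summits. It is shown in 201 bases centred on the summit, in capitals, for the 4 strongest members with a match outside that arm. Each is written along the strand on which the 8 bases read forward, which is the plus strand for CG42342 (chr3R:16524182-16524382) and cv-c (chr3R:14478780-14478980) and the minus strand for aop (chr2L:2163581-2163781) and beat-IIIc (chr2L:17243490-17243690).
CG42342: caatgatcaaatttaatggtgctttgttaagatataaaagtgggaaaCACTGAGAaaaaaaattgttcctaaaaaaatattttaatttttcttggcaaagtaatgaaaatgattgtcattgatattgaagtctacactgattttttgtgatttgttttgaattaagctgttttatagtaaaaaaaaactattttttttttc
cv-c: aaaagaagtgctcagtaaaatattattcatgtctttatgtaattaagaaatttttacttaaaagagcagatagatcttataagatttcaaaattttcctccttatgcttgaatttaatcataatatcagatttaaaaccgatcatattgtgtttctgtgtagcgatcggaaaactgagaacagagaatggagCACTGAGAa
aop: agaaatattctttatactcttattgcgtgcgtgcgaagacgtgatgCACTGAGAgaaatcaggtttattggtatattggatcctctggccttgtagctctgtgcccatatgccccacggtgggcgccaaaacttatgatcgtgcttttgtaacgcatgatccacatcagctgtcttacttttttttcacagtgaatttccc
beat-IIIc: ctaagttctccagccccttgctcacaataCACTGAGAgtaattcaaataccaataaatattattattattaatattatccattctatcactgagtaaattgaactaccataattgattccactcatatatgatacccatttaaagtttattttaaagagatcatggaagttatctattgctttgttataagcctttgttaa
The centre of the match was 49.5 bp from the summit in CG42342, 50.5 bp in aop and 67.5 bp in beat-IIIc, and in these 3 it preceded the summit, so that it read towards it. In cv-c the match was 95.5 bp beyond the summit and read away from it.

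The signal of a peak is the authors' deposited value, on a scale that differs between lists. The sources used here do not say whether it is a fold over the control or a statistic of the peak caller, so it orders peaks within a list and its ratios have no stated meaning. Distal intronic summits had a median signal of 152.5 (quartiles 119.6 and 215.3, range 100.8 to 826.9) in the reproducible list. The medians were 156.5 at summits within 500 bp of a TSS, 160.1 between 500 and 2000 bp, and 148.7 at distal summits outside genes. In the replicate lists, the median was 93.6 in replicate 1 and 60.9 in replicate 2, against 101.2 and 60.3 at summits within 500 bp of a TSS. Distal intronic summits therefore stood below the promoter class in replicate 1 and beside it in replicate 2. Of the members, 199 (27.1%) were among the 1000 strongest reproducible peaks, compared with 33.1% of the promoter class.

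Most members were found in both replicates. Of 733 members, 732 matched a peak of the full replicate 1 list and all 733 a peak of the replicate 2 list. Among the 3260 strongest peaks of both replicates were 562 members (76.7%, 73.4 to 79.7), compared with 71.9% of promoter summits and 74.2% of all reproducible peaks. This share depended on signal. With the members divided by signal into 4 groups of equal size, it was 27.7% in the weakest group, 80.3% and 98.9% in the next groups, and 100% in the strongest. The reproducible peaks were selected on these libraries, so this overlap is not independent evidence of binding.

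**Figure D1:**
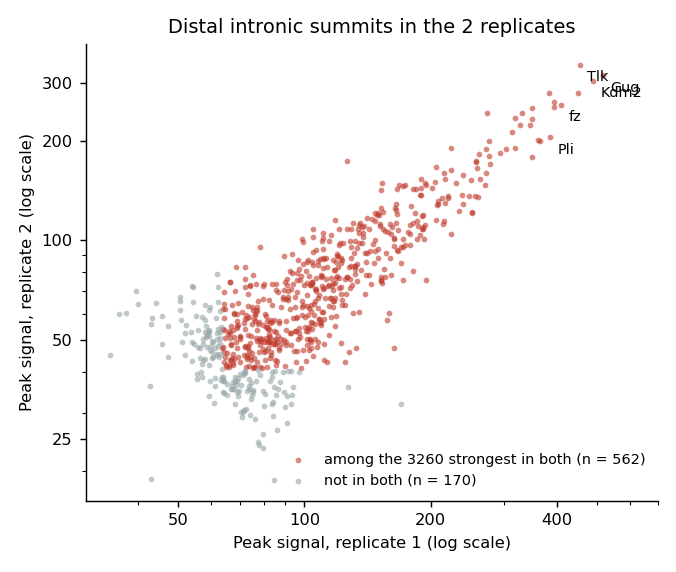
Peak signal of distal intronic summits in replicate 1 (horizontal) and replicate 2 (vertical), both on log axes, 1 point per summit. Red points are the 562 summits among the 3260 strongest peaks of both replicates; the named summits, such as Gug with 516 and 315, lie at the upper right.

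The 10 strongest members were first described singly. The summit in Gug (Grunge, an Atrophin corepressor; peak chr3L:8458180-8458486) had a signal of 827, with 516 in replicate 1 and 315 in replicate 2, in intron 2 of 15. The summit in Kdm2, a histone demethylase gene (chr3R:9057359-9057792, intron 2 of 5), had 795, with 489 and 304. The summit in Tlk, which encodes the Tousled-like kinase (chrX:3742061-3742366, intron 2 of 8), had 793, with 454 and 340. All 3 ranked among the first 41 peaks of each replicate. The gene scribbler (sbb), which encodes a nuclear transcriptional regulator, held the next pair in intron 2 of 11, with signals of 726 (449 and 278) and 676 (383 and 280), 1282 bp apart.

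The summit in fz, which encodes the Frizzled receptor of Wnt and planar polarity signalling, had 658 (410 and 257) and lay near the end of intron 1 of 4, 25273 bp from any TSS. In aos (argos, a secreted inhibitor of the EGF receptor) the summit in intron 1 of 3 also had 658 (394 and 263), and it lay inside the span of CG33158 as well. In the nuclear receptor gene Hr4 the summit in intron 2 of 11 had 653 (393 and 253). A summit with 598 (349 and 252) lay in the overlapping genes Hr3, a nuclear receptor, CG46321 and CG12912, and one with 586 (386 and 205) in Pli (Pellino, a ubiquitin ligase linked to Toll signalling). These 10 held ranks from 28 to 128 in the replicate lists, so each was among the strongest peaks of both.

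The 733 summits fell in 425 host genes, which is 9.79% of the 4343 protein-coding genes with any eligible sequence. A single summit was held by 252 host genes, 2 by 92, and 3 or more by 81, and 17 held at least 5. Genes with at least 2 held 493 summits (67.3%), and 21 summits lay in more than 1 gene. Host genes were long. Their median eligible sequence was 18.4 kb, against 1.09 kb in the other genes with eligible sequence. Of 992 genes with at least 10 kb, 285 were hosts (28.7%), and of 3351 with less, 140 were (4.18%). The share rose from 22.3% of genes with 10 to 20 kb to 27.3% with 20 to 40 kb and 41.0% above 40 kb.

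The genes with the most summits differed widely in how densely they were bound. The largest number was 11, in kirre, an immunoglobulin-domain adhesion gene of myoblast fusion, over 291 kb of eligible sequence. The ecdysone-induced nuclear receptor gene Eip75B held 9 over 77.6 kb, and RapGAP1, a GTPase-activating protein gene, held 8 over 63.0 kb. There were 7 in sbb over 46.8 kb and 7 in Ten-a, a teneurin gene, over 215.7 kb. Raf, which encodes the kinase of the MAP kinase cascade, held 6 over 28.7 kb. Eligible sequence per summit was 4.78 kb in Raf and 30.8 kb in Ten-a. Over all genes with at least 6 summits it ran from 4.19 kb in tara to 30.8 kb. The other genes with 6 were fz, tara, CG1677, pyd, Smr and pnt, so Raf was chosen among ties by its summed signal.

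In kirre the strongest of the 10 summits for which it was the innermost gene had a signal of 454 (271 and 189) and lay 2350 bp from a TSS in intron 5 of 10, while the other 9 had between 114.9 and 245.6. In Eip75B the strongest pair, 369 (238 and 137) and 352 (234 and 123), lay in intron 3 of 7, and the weakest summit of that gene had 106.5 (64.2 and 34.6). Signals of RapGAP1 ran from 101.5 to 222.5 and those of Ten-a from 101.7 to 188.1. The strongest summit of Ten-a thus lay below the strongest of the 4 signal groups, which began at 215.5, and that of RapGAP1 just inside it.

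Host genes also had promoter summits more often than other genes with eligible sequence. A reproducible summit within 500 bp of a TSS was present in 136 of 425 host genes (32.0%, exact interval 27.6 to 36.7) and in 632 of 3918 others (16.1%, 14.99 to 17.3), where 17.7% of all 4343 genes had one. Among genes with 10 to 20 kb of eligible sequence the shares were 30.3% of hosts and 13.5% of others, with 20 to 40 kb 33.3% and 14.9%, and above 40 kb 32.0% and 8.11%. The difference was thus present in each range of length. The nearest TSS of a summit belonged to its host gene in 563 cases (76.8%). The rule places every summit inside a gene, and the same share over eligible sequence was not computed. This value is therefore not a trait of the summits.

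The first introns held more distal intronic summits than their share of sequence, though not most of them. By the longest transcript of the host gene, 315 of 733 (43.0%, exact interval 39.4 to 46.6) were in intron 1, which held 25.1% of eligible sequence. Intron 2 held 234 (31.9%, against 27.6% of sequence), intron 3 held 81 (11.1%, against 13.01%) and later introns 103 (14.1%, against 34.3%). In summits per Mb, the density fell from 30.0 in first introns to 20.2 in second introns, 14.9 in intron 3 and 7.17 in later introns. Counting the first intron of any transcript raised the number for first introns to 445 (60.7%, against 36.7% of sequence). The introns were long, with a median of 16.9 kb (quartiles 8.57 and 31.8 kb). When each intron was divided into 4 equal stretches from its 5′ end, the densities were 16.4, 20.7, 17.6 and 15.1 per Mb, a much narrower range than that by intron order.

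Density also fell with distance from the nearest TSS, both in first and in later introns. It was 29.3 summits per Mb at 2 to 3 kb (141 summits) and 28.5 at 3 to 5 kb (203), then 20.2 at 5 to 10 kb (215), 13.9 at 10 to 20 kb (122) and 9.23 at 20 to 50 kb (51). In first introns alone it fell from 38.3 at 2 to 3 kb to 16.4 at 20 to 50 kb, and in later introns from 23.2 to 8.24. First introns were denser in each of these 5 ranges. Beyond 50 kb a single summit lay in 5.05 Mb (0.198 per Mb), in intron 8 of 13 of the homeobox gene hth, 76971 bp from any TSS, with a signal of 325 (205.5 and 115.5). The repeat-masked share of sequence was 19.7% at 2 to 3 kb and 37.6% beyond 50 kb; its part in the low density was not tested.

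**Figure D2:**
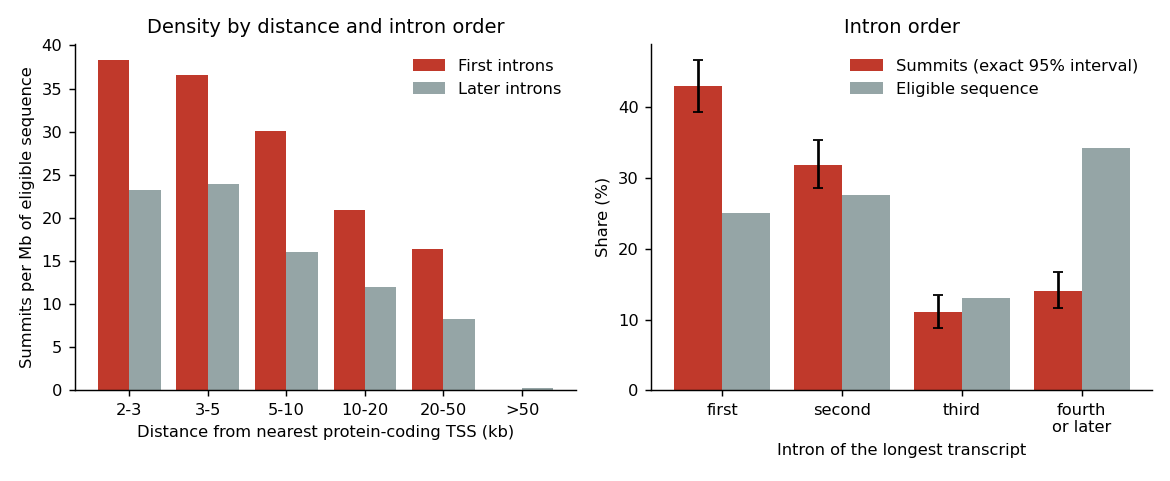
Left, distal intronic summits per Mb of eligible sequence (vertical) by distance from the nearest protein-coding TSS in kb, for first introns (red) and later introns (grey); right, share in percent of summits (red, bars are exact 95% intervals) and of eligible sequence (grey) by intron number. First introns are denser at each distance up to 50 kb, and introns after the third hold 14.1% of summits in 34.3% of the sequence.

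At the 2000 bp limit, the members just inside were in drn (2003 bp, signal 296) and CG43658 (2019 bp, signal 145), and the summits just outside were in Dif (1995 bp, signal 426) and pot (1992 bp, signal 267). Moving the limit to 1900 or 2100 bp gave 757 or 717 members. By chromosome arm the density was 21.4 per Mb on X, 20.3 on 2L, 17.5 on 3L, 15.9 on 2R and 14.9 on 3R. The small chromosome 4 held none in 0.444 Mb, where a count of 0 allows up to 6.75 per Mb, below the 17.5 of all eligible sequence.

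Many summits lay close together. The nearest other member was at a median of 9.32 kb (quartiles 2.26 and 52.5 kb), and 287 members (39.2%, 35.6 to 42.8) had one within 5 kb. Within 1 kb 85 members (11.6%) had one, and the smallest spacing was 199 bp. The median peak was 376 bp wide, so the closest summits may share a site. Exactly this width was deposited for 494 members (67.4%), so it tells little about the extent of a site. Several pairs lay just above the smallest spacing, such as those in FER (0.2 kb), tara (0.202 kb), Dys (0.203 kb) and Wwox (0.204 kb). Whether the caller set a least spacing is unknown. In kibra, 2 overlapping peaks with summits 237 bp apart matched the same replicate 1 peak. Whether close summits are separate bound sites was not tested. Linking members within 5 kb gave 570 runs, of which 446 held 1 summit, 94 held 2, 23 held 3 and 7 held 4 or 5. Of 163 adjacent pairs within 5 kb, 162 were in the same gene and 148 in the same intron. The rule itself favours this outcome. Each member lies over 2000 bp from any protein-coding TSS, so close members can seldom have one between them. Members in runs had a median signal of 168.0 and lone members 140.5. Members with another within 5 kb made up 33.2% of the weakest of the 4 signal groups and 51.4% of the strongest. Both measures include the closest pairs, which may share a site, and neither was computed without them.

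The largest runs each crossed a few kb of 1 or 2 introns. In sbb, 5 summits lay in 9.07 kb of intron 2, with signals from 131.6 to 725.9. In Raf, 5 summits lay in 6.37 kb of intron 2 of 6. Their signals from the 5′ end were 432.9 (271 and 160), 304.8 (185 and 114), 330.6 (189 and 144), 168.9 (101.3 and 68.4) and 199.9 (128 and 71.6). The summit nearest the TSS was the strongest in both replicates, and the order of the others was the same in both. Runs of 4 lay in pyd, the gene of a ZO-1-like junction protein (7.55 kb, strongest 427), in beat-Ib, a member of the beaten path immunoglobulin family (4.46 kb, strongest 413), in msn, a Ste20-family kinase gene (5.32 kb, strongest 291), in Smr (3.12 kb, strongest 266) and in pnt (7.35 kb, strongest 291). Within 5 kb, adjacent summits differed by a median of 0.50 in the log2 of the deposited signal.

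Host genes were then described by 11 functional lists. Beside them stand the 9.79% of eligible genes that were hosts and the 17.5 summits per Mb over all eligible sequence. The lists were chosen with earlier results of these data known, so their densities are a description. Density also fell with distance from the TSS and with intron order, and the lists were not matched for either. Eligible sequence came to 1.501 Mb in 43 ion channel and synaptic genes and to 0.212 Mb in 32 trithorax and remodelling genes. What part these differences have in the list densities was not tested. Signalling genes were hosts in 24 of 60 cases, with 58 summits at 63.2 per Mb (47.996 to 81.7). Besides fz and aos they included pyd, Notch (N, 418), the Egfr, tkv, ptc and InR receptors, and the effectors aop and pnt. Of the 58 summits, fz, pyd and pnt held 6 each. Nuclear receptor and ecdysone response genes were hosts in 10 of 22 cases, with 30 summits at 50.6 per Mb (34.2 to 72.3), led by Hr4, Hr3 and Eip75B. Of the 30 summits, Eip75B alone held 9. The ecdysone receptor gene EcR held 2, the stronger with a signal of 175.

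Chromatin regulators were hosts at similar densities. Of the trithorax and chromatin remodelling genes 7 of 32 were hosts, with 17 summits at 80.1 per Mb (46.7 to 128.2), led by Gug, osa, a SWI/SNF subunit gene (579, with 331 and 243), and trx, the trithorax methyltransferase gene (551, with 328 and 224). Much of this density came from few genes: Smr held 6 of the 17 summits and Gug 3. The 2 summits counted for Mi-2 lay in Su(Tpl), a gene inside its span. The 5 hosts among 20 Polycomb group genes and their recruiters were Kdm2, grh (476), Psc (267), ph-p (134) and psq (103), at 47.2 per Mb (17.3 to 102.7). The lower bound of this interval lies at the density of all eligible sequence.

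Lists of developmental transcription factors and of muscle and cytoskeleton genes had densities whose intervals included 17.5 per Mb. Neural transcription regulators were hosts in 7 of 26 cases (22.4 per Mb), led by sim, the midline regulator (508, with 318 and 191), grh and jing (267). Segmentation and Hox genes were hosts in 6 of 23 cases (24.6 per Mb), led by hth, Antp (268) and lab (185). The 3 summits counted for Antp lay in CG46458, a gene inside its span. With the innermost gene alone, 5 genes of this list were hosts. Mesoderm and muscle genes were hosts in 6 of 30 cases (32.8 per Mb). They were led by pnt, an ETS factor gene (291), the integrin gene if (198) and the RNA-binding protein gene how (194). Of their 13 summits, pnt held 6, which also count in the signalling list. Cytoskeleton and GTPase regulators were hosts in 11 of 46 cases (27.5 per Mb), led by pyd, the afadin-like gene cno (294) and mbc (291), a Rac activator of myoblast fusion.

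Ion channel and synaptic genes, which have long introns, held few summits. They were hosts in 2 of 43 cases, Ca-beta, a calcium channel subunit gene (163, with 103 and 62.6), and dnc, a cAMP phosphodiesterase gene (130, with 71.6 and 56.3). In the list of replicate 2 alone, 4 of these genes were hosts. In the reproducible list, the 4 summits of Ca-beta and dnc in the 1.501 Mb of all 43 genes came to 2.66 per Mb (0.726 to 6.82). For the remaining lists the interval again included 17.5 per Mb. RNA-binding and splicing regulators were hosts in 9 of 29 cases at 11.3 per Mb (6.45 to 18.3), led by Rbfox1 (316), shep (294) and brat (195). Axon guidance and cell adhesion genes were hosts in 15 of 52 cases at 16.01 per Mb (11.4 to 21.9), led by kirre, the semaphorin gene Sema1a (373) and the netrin gene NetA (357). Some genes stand in several lists, and summits within a gene are not independent, so these intervals are narrower than the spread between genes.

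**Figure D3:**
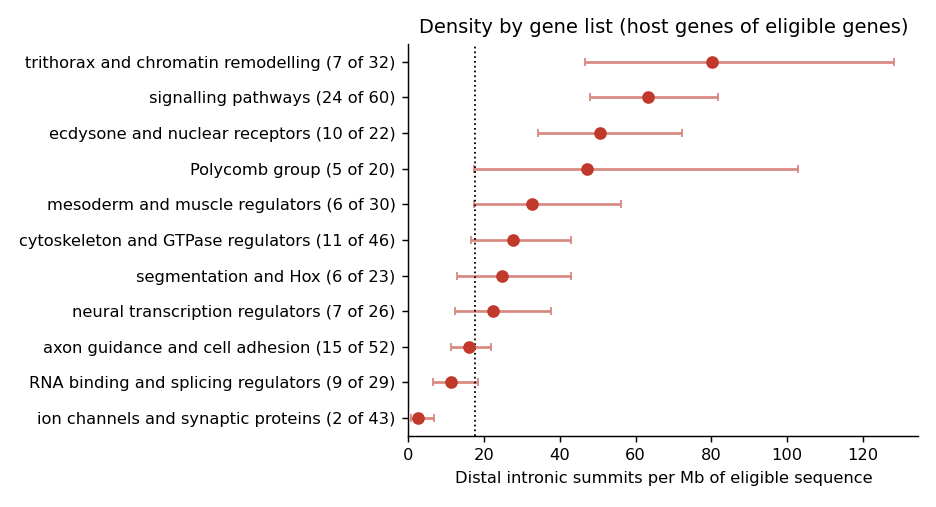
Distal intronic summits per Mb of eligible sequence (horizontal) for 11 lists of genes, with host genes of eligible genes in brackets. Points are densities, bars are exact 95% intervals for counting error only, and the dotted line is the 17.5 per Mb of all eligible sequence. The lists run from 2.66 for ion channels and synaptic proteins to 80.1 for trithorax and chromatin remodelling. They were chosen with earlier results of these data known and were not matched for distance from the TSS.

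The sequence at the summits was rich in A and T, as in the 5 windows printed above. In the 51 bp centred on a summit the median GC content was 29.4% (quartiles 23.5% and 35.3%), and at 250 bp to either side it was 45.1%. The centre was lower than the mean of its shoulders in 627 of 733 members (85.5%, 82.8 to 88.0). In 20974 windows placed every 2000 bp in eligible sequence the median was 41.2% and the centre was lower in 50.1%. The shoulders were thus above, and the centre below, the composition of the introns. The same shape was present at the other summits, with centre medians of 29.4% within 500 bp of a TSS and 27.5% at distal summits outside genes, so it was not particular to the intronic ones.

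The dip was deeper at stronger peaks. From the weakest to the strongest of the 4 signal groups, the median GC content of the centre was 31.4%, 29.4%, 29.4% and 27.5%. In 7000 distal intronic peaks of the pooled list that ranked below the reproducible ones, it was 39.2%, and the centre was lower than the shoulders in 55.7%. With the 3260 strongest peaks of replicate 1 alone the centre was lower in 85.9% of members, and with those of replicate 2 in 84.5%. The repeat-masked share of bases was 25.4% at the summit and 18.2% at 250 bp upstream along the plus strand.

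**Figure D4:**
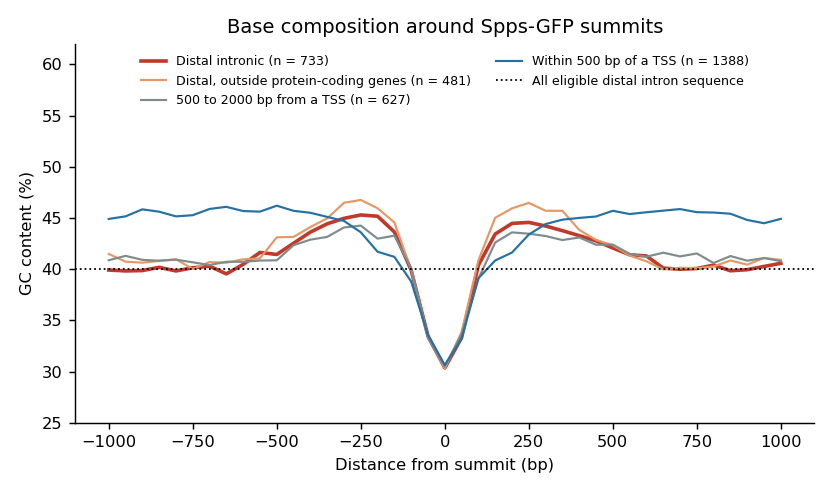
GC content in percent (vertical) by distance from the summit in bp (horizontal), for distal intronic summits (thick red line) and 3 other classes, with the 40.01% of eligible intron sequence as a dotted line. All classes dip at the summit; the distal intronic line is 30.4% at the summit and 45.3% at 250 bp on one side.

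Known motifs were counted as strings, on either strand, in the 100 bp to each side of a summit, beside windows of the same length 500 bp to either side. The Sp/KLF core, GGGCGGG or GGGCGTG, was in 12 members (1.64%), in 4.77% of flanking windows and in 4.46% of the intron windows. At 250 bp from the summit, in the GC-rich shoulders, it was in 6.28% of windows (5.09 to 7.64). A looser Sp/KLF string, RRGGYGY (R is A or G, Y is C or T), was in 12.0% of members, 18.2% of flanks and 17.5% of intron windows. In windows of 200 bp to each side it was in 30.6% of members against 33.7% of flanks. The GAGA factor string GAGAG was in 22.2% of members at the summit, 33.6% of windows at 250 bp, 27.3% at 500 bp and 22.3% at 1000 bp, and in 21.8% of intron windows. The share at the summit was thus close to that at 1000 bp, and in windows of 200 bp to each side, which take in the shoulders, the direction against the flank at 500 bp turned (50.3% against 44.0%). GCCAT, the core of the Polycomb recruiter Pho, was in 21.4% of members and 36.2% of flanks, against 36.3% of intron windows. The TATA and GATA strings were more frequent at the summit. TATAAA or TATATA was in 48.8% of members and 28.5% of flanks (29.8% of intron windows), and the GATA factor strings (A or T, then GATA, then A or G) were in 42.0% and 28.4% (30.7% of intron windows). Both also exceeded their flanks in the other classes. The TATA strings were in 51.9% of promoter summits, 47.8% between 500 and 2000 bp and 47.6% of distal summits outside genes. The GATA strings were in 36.2%, 44.8% and 38.9%. A run of 8 A bases was in 17.3% of members (14.7 to 20.3) and 16.2% of flanks (14.3 to 18.2), so its intervals overlapped, and in 12.7% of intron windows. Base composition moved with these counts, and its part in them was not tested.

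Several strings typical of promoters, though not the TATA strings above, were rarer at distal intronic summits than at promoter summits. The DRE, TATCGATA, was in 1 member (0.136%, exact interval 0.00345 to 0.758), in 0.415% of intron windows and in 85 of 1388 summits within 500 bp of a TSS (6.12%, 4.92 to 7.52). It was as scarce between 500 and 2000 bp (0.159%) and at distal summits outside genes (0.208%). CGATA, the core bound by the insulator protein BEAF-32 and part of the DRE, was in 18.7% of members and 35.1% of promoter summits, and in 19.96% of intron windows. The core promoter elements Motif 1 and Motif 6 were in 0 members each, which is up to 0.502% by the exact interval, and in 2.67% and 1.37% of promoter summits, against 0.0238% and 0.281% of intron windows. The early activator Zelda's CAGGTA was in 4.91% of members, 4.43% of flanks and 4.05% of intron windows.

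CACTGAGA (TCTCAGTG on the other strand) held rank 10 among 8-base strings within 75 bp of the members' summits, behind 9 made only of A and T. It was chosen on these same windows, so its share in them is a description. Within 100 bp it was in 47 of 733 members (6.41%) in 42 host genes, in 0.477% of flanking windows and in 0.653% of intron windows. The members' 49 matches lay at a median of 67.5 bp from the summit, and 46 of them (93.9%) read towards it. The 100 bp window bounds this median, and further matches lay beyond it. With 200 bp to each side the string was in 9.14% of members and 1.16% of flanks. The base before was A or G in 98.0% of the 49 matches, the base after in 91.8%, and the following positions were A in 83.7%, 87.8% and 89.8%. Of the 49 matches, 29 (59.2%) were repeat-masked over all 8 bases, against 26.1% of the 138 matches in intron windows and 16.7% of 8-base stretches at about the same distance from members' summits. What part repeated sequence has in this pattern was not tested.

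Peaks that did not enter the choice also held this string. In the 7000 distal intronic peaks below the reproducible list it was in 155 (2.21%, 1.88 to 2.59) against 0.550% of their flanks (0.434 to 0.687), and 81.1% of its matches read towards the summit. Among reproducible summits of other classes it was in 44 of 481 distal summits outside genes (9.15%, 6.73 to 12.1), 29 of 627 between 500 and 2000 bp (4.63%) and 25 of 1388 within 500 bp of a TSS (1.80%, 1.17 to 2.65). These lists come from the same libraries and control. Distal summits thus held it more often than promoter summits, and in the latter 92.0% of matches still read towards the summit. This did not extend to the 7406 promoter peaks below the reproducible list. There it was in 0.716% (0.537 to 0.935) against 0.479% of flanks (0.375 to 0.604), and 50.9% of matches (36.8 to 64.9) read towards the summit. In the 4 signal groups of members, from weakest to strongest, 13, 3, 16 and 15 summits held it, without a steady order.

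**Figure D5:**
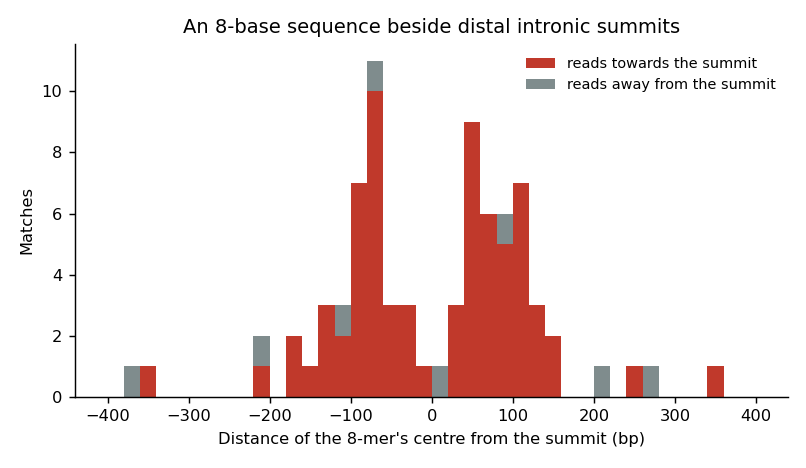
Number of matches to the 8-base sequence (vertical) by distance of its centre from the distal intronic summit in bp along the plus strand (horizontal, bins of 20 bp). Red matches read towards the summit and grey ones away from it; most lie on either side of the summit, at a median of 67.5 bp within the 100 bp window, with few at the summit itself.

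Noncoding genes and transposable elements accounted for few members. There were 40 members (5.46%, 3.93 to 7.36) within 500 bp of a noncoding gene, where 2.88% of eligible sequence lay, and 39 of these were beside genes annotated as ncRNA. The remaining one was beside a snoRNA gene. Of the members, 15 (2.05%) were within 500 bp of a noncoding TSS, a measure for which no share of eligible sequence was computed. An annotated transposable element held 1 member (0.136%, up to 0.758%), although such elements covered 7.89% of eligible sequence. Whether peaks could be called within such elements is unknown, since the aligner is not given.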

How the data were processed

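The deposited files are peak lists with dm6 coordinates according to the labels. Which aligner and caller made them, and at what IDR threshold, is not given in the sources used here. Each replicate list and the list pooled from both, per the file headers, holds 30000 peaks, and the reproducible list 3260. The deposited signal of a peak is a value of the authors' caller. Whether it is a fold over the control or another statistic is not stated in the headers, so it was used within a list, or side by side for a summit matched in both replicates. Every reproducible peak had the deposited −log10 q-value 3.96, which was not used. The summit is the peak start plus the deposited offset.

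The gene annotation was that of Ensembl release 115 (BDGP 6.54), from which transposable elements were left out. Sequence and its repeat masking came from RefSeq release 6, which has dm6 coordinates. A replicate peak was matched within 200 bp of the summit, and the same replicate peak could match more than 1 summit. Intron order used the longest transcript of the innermost host gene. Motifs were searched on both strands. Shares carry exact (Clopper-Pearson) 95% intervals and the limit for a count of 0 is 3 counts. No test was run, since there is 1 group, and summits are not replicates. The 8-base strings within 75 bp of summits were ranked against windows 500 bp away, and the string with at least 3 G or C bases was singled out after the ranking, and one of 6-base strings, were seen. Of 475 gene symbols in the lists, 451 matched the annotation.

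The members, gene lists and motifs were chosen with earlier results of these data known. The GC windows, distance ranges, length ranges, the peaks below the reproducible list and all values for the 8-base string were chosen after seeing the data. Of 22 motifs searched, those described in the text are the Sp/KLF, GAGA, Pho, TATA, GATA, DRE, BEAF-32, Motif 1, Motif 6 and Zelda strings. Named genes were the hosts of the 10 strongest members, the 6 genes with most members, the 5 largest runs, for each list the 3 hosts whose summit signal was highest and the summits just inside and outside the 2000 bp limit. Further genes (such as N, EcR, tara, Smr and psq) were picked once their values were known. Alternatives were each replicate alone, the 1000 strongest peaks, and other distances, windows, transcripts and TSS sets. Recovery of planted summits and of a planted 8-base string was tested on simulated data. The tools were pandas 2.3.3, SciPy 1.17.1, NumPy 2.4.6 and, for figures, matplotlib 3.10.9, under Python 3.11.15.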

Additional observations from a re-analysis of the deposited data

How the results depend on the processing

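With the 3260 strongest peaks of replicate 1 or replicate 2 in place of the reproducible list, the share of distal intronic summits ranged from 21.1% to 23.3% and their number from 688 to 759; 566 members (77.2%) were found with both. The number fell to 389 with a limit of 5000 bp. The share was 29.8% with 1000 bp, 11.9% with 5000 bp, 21.0% with TSSs of any gene and 19.9% in the 1000 strongest peaks, and the density 20.2 per Mb with 1000 bp and 12.98 with 5000 bp. The first-intron share was 60.7% with any transcript and 47.7% in the 1000 strongest peaks, and later introns then held 10.9 summits per Mb by the any-transcript definition. Another member lay within 2 kb for 24.3% and within 10 kb for 51.4%, and any reproducible summit within 5 kb for 50.2%. A noncoding gene overlapped 2.86%. Host genes with a promoter summit were 22.1% with a 250 bp window and 37.6% with 1000 bp.

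For single motifs, GAGAG reversed against its flank in windows of 200 bp to either side (50.3% against 44.0%), and CAGGTA in the list of replicate 1 alone (4.22% against 4.43%, with 4.48% in that of replicate 2); the cause was not tested. Ion channel and synaptic hosts numbered 4 in the list of replicate 2 alone. Depth is unknown, lists stop at 30000 peaks, and no paired analysis was possible because there is 1 group.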
